A study of Mus musculus with 12 samples.

Results

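The piRNA biogenesis enzymes and cofactors described here are 10 genes of the mouse: *Pld6*, *Mov10l1*, *Gpat2*, *Asz1*, *Pnldc1*, *Henmt1*, *Ddx4*, *Fkbp6*, *Gtsf1* and *Exd1*. They were listed by name from what their proteins are known to do, by a rule that uses no measured value, but with earlier results of these data known. They are 10 of the 20620 genes in the deposited table of counts. All 10 had counts in each of the 12 libraries and all 10 passed the filter on low counts in both assays. Gene positions below are those of RefSeq on GRCm38.p6, the build that the authors' alignments to mm10 share. No exon of a member overlapped an exon of another curated RefSeq gene.

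Whole testes of C57BL/6 mice, taken at postnatal day 16, gave 2 kinds of library: RNA, and ribosome footprints, the mRNA fragments that ribosomes protect from nuclease. The controls were *Mael*+/- testes, which carry 1 mutant allele of *Mael* themselves. They were set against *Mael*-/- testes, which lack Maelstrom, a protein of the piRNA pathway that keeps the retrotransposon LINE-1 (L1) in check in germ cells. Each genotype had 3 extracts made in cycloheximide, which holds ribosomes on mRNA, and aliquots of each extract gave 1 RNA library and 1 footprint library, so that 4 groups of 3 libraries were formed. The study asked how translation fares in germ cells in which L1 is active. No source used here says whether an extract held the testes of 1 animal or of several, so the p-values below measure the spread between extracts.

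PIWI-interacting RNAs (piRNAs) are small RNAs of the germ line that guide PIWI proteins to transposon transcripts. In the mouse testis, long single-stranded precursors are bound by the helicase MOV10L1 and cut at the outer membrane of mitochondria by PLD6, with GPAT2 and ASZ1 as membrane partners. The ends of the fragments loaded into PIWI proteins are then trimmed by PNLDC1 and methylated by HENMT1. In the germ granules known as nuage, the helicase DDX4, the cochaperone FKBP6, the TDRD12 partner EXD1 and the zinc finger protein GTSF1 act with PIWI proteins as these cut transposon RNA. Loss of many of these proteins in the mouse stops spermatogenesis in males.

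*Mael* was checked first, and its counts went with the labels. RNA libraries held 5045, 4314 and 3800 *Mael* counts in *Mael*+/- and 1, 2 and 0 in *Mael*-/- testes. Footprint libraries held 1294, 660 and 863 against 0, 0 and 7. Gene counts totalled 13697267 to 27462358 per RNA library and 7609932 to 13233565 per footprint library. The members took 0.0871 to 0.1205% of the gene counts of an RNA library and 0.108 to 0.163% of those of a footprint library. The lowest member count in any library was 87, for *Exd1* in footprints, with a counting error of 10.7%.

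One extract stood apart, *Mael*+/- replicate 1, and it bears on most values below. The summed RNA level of 10 pachytene spermatocyte markers ran from 179 to 631 counts per 1000000 gene counts of the library (CPM) in *Mael*+/- and from 125 to 142 in *Mael*-/- testes, and 631 was that of replicate 1. The same sum in footprints was 241 to 893 CPM against 198 to 238, again highest in replicate 1. Over 10 markers of early meiotic prophase, the RNA sum was 927 to 2239 CPM against 990 to 1431. None of the 10 pachytene markers was at 0 in RNA, and 1, *Adam3*, was at 0 in all *Mael*-/- footprint libraries. *Pgk2*, *Adam3*, *Acr* and *Pou5f2* had too few RNA counts to pass the filter. *Hspa2* made up the largest part of the RNA sum, with means of 206 CPM in *Mael*+/- and 97.4 CPM in *Mael*-/-. *Tnp2*, *Prm1* and *Prm2*, 3 of 8 markers of round spermatids, were at 0 in every RNA library. The rest of the 8 had RNA counts in both genotypes. The RNA sum over the 8 was 6.77 to 8.62 CPM in *Mael*+/- and 7.19 to 8.93 CPM in *Mael*-/- testes. Sums over 10 spermatogonial markers (1112 to 1335 CPM against 1120 to 1198) and 9 Sertoli cell markers (5777 to 6606 CPM against 5868 to 6514) overlapped between genotypes. In RNA of whole testes, fewer cells of a type and less RNA per cell cannot be told apart. Because of this extract the fold changes of the members, and those of the piRNA pathway genes and relatives set beside them, are also given without it. Pachytene markers stayed lower in *Mael*-/- then, in fits added after the data were seen. All 6 tested in RNA had a negative log2 fold change (*Mael*-/- over *Mael*+/-), median -0.44, 2 of them at an adjusted p below 0.05 (edgeR). In footprints all 5 tested were negative (median -0.58). Of 10 early meiotic prophase markers, 2 were negative in RNA (median 0.33, 1 at an adjusted p below 0.05) and 3 in footprints (median 0.10).

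The sequences before annotated transcription starts are shown for the members that share a motif rare among promoters, the E-box, so that the letters stand beside the levels of the same genes. RefSeq (GRCm38.p6) gave windows from 250 bases before to 50 after a start for 9 of the 10 members, *Pnldc1* being the exception, and 11 windows in all. The start used for a window need not be the outer end of the gene position given below. The stretches printed for *Ddx4*, *Fkbp6* and *Henmt1* lie within those gene positions. The start used for *Mov10l1* also lies inside its gene position. Distances are counted from the start used for the window. The motifs searched on both strands were CACGTG (an E-box), AACNG and its narrower form AACTG (MYB sites) and CCAAT (NFY). CACGTG was found in 4 of the 9 genes, *Fkbp6*, *Pld6*, *Ddx4* and *Mov10l1*, where 8.09% of 27025 genes had it in such a window. AACNG was in 8 of the 9, and in 82.4% of genes. AACTG was in 2 of the 9 (48.2% of genes) and CCAAT in 5 of the 9 (41.1% of genes). Such matches describe letters and not bound sites.

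The stretches of 120 bases below run 5′ to 3′ in the direction of the gene, with matches of the E-box, of the wider MYB motif and of the NFY motif on either strand in capitals. The first 4 are the genes with an E-box. They begin 120 bases before the start, except that of *Mov10l1*, which runs from 250 to 131 bases before it because its E-box lies 246 bases upstream. *Henmt1* is shown as a member without one. The positions are chr13:112652311-112652430 (minus strand) for *Ddx4*, chr5:135350045-135350164 (minus strand) for *Fkbp6*, chr11:59787658-59787777 (minus strand) for *Pld6*, chr15:88982744-88982863 (plus strand) for *Mov10l1* and chr3:108940437-108940556 (plus strand) for *Henmt1*.
Ddx4: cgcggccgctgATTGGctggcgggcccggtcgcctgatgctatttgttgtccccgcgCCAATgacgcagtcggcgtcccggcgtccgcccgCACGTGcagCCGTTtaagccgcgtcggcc
Fkbp6: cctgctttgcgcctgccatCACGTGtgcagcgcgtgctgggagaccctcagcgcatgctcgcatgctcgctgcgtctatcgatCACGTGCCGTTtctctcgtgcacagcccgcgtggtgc
Pld6: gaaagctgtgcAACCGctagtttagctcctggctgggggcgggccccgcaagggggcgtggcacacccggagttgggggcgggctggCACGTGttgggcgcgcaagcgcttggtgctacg
Mov10l1: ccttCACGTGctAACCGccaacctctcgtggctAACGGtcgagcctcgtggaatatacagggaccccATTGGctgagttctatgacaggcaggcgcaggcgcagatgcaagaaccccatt
Henmt1: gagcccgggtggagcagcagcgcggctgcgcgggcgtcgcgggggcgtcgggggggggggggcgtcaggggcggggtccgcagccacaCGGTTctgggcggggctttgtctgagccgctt

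In *Ddx4* and *Pld6* the E-box lay 29 and 33 bases before the start. *Fkbp6* held it at both 101 and 37 bases, and the second copy was followed directly by a match of AACNG on the other strand. *Fkbp6* has a further annotated start nearby, whose window overlaps the one shown and holds the same copies. One CCAAT match of *Mov10l1*, 133 bases before its start, runs past the printed end and is in lower case.

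None of the 10 members passed the test between the genotypes in RNA after correction for all genes tested. With edgeR's quasi-likelihood test and Benjamini-Hochberg adjustment the lowest adjusted p among them was 0.863, for *Mov10l1*, while 17 of 14685 genes passed 0.05 (0.116%). Unadjusted, p was below 0.05 for 1 member, *Mov10l1*, as for 5.40% of all genes. The number of such members was 0 without *Mael*+/- replicate 1 and 4 without *Mael*+/- replicate 3. For those fits the share of all genes was not worked out. DESeq2 also called none of the 10, with a lowest adjusted p of 0.452 among them. The log2 fold change (*Mael*-/- over *Mael*+/-) was negative for 9 of the 10, with a median of -0.16 and a range of -0.45 to 0.04, where the median over all genes was -0.00 and 50.4% were negative. Without *Mael*+/- replicate 1 the members' median was -0.03.

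Footprints gave the same count of calls. None of the 10 passed, with an adjusted p of 0.998 for each by edgeR's quasi-likelihood test, where 8 of 13500 genes did (0.0593%). *Mov10l1*, *Gtsf1* and *Asz1* had an unadjusted p below 0.05, 3 of 10 members against 4.33% of all genes. This number hung on single libraries. It was 1 without *Mael*+/- replicate 1, 0 without *Mael*-/- replicate 3 and 5 without *Mael*+/- replicate 3. The share of all genes in those fits was not worked out. DESeq2 called none, with a lowest adjusted p of 0.467 among the members. The median log2 fold change was -0.25 over the members, 9 of them negative, and -0.01 over all genes. It was -0.07 without *Mael*+/- replicate 1, where the lowest adjusted p among the members was 0.798 by edgeR, for *Mov10l1*.

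**Figure D1:**
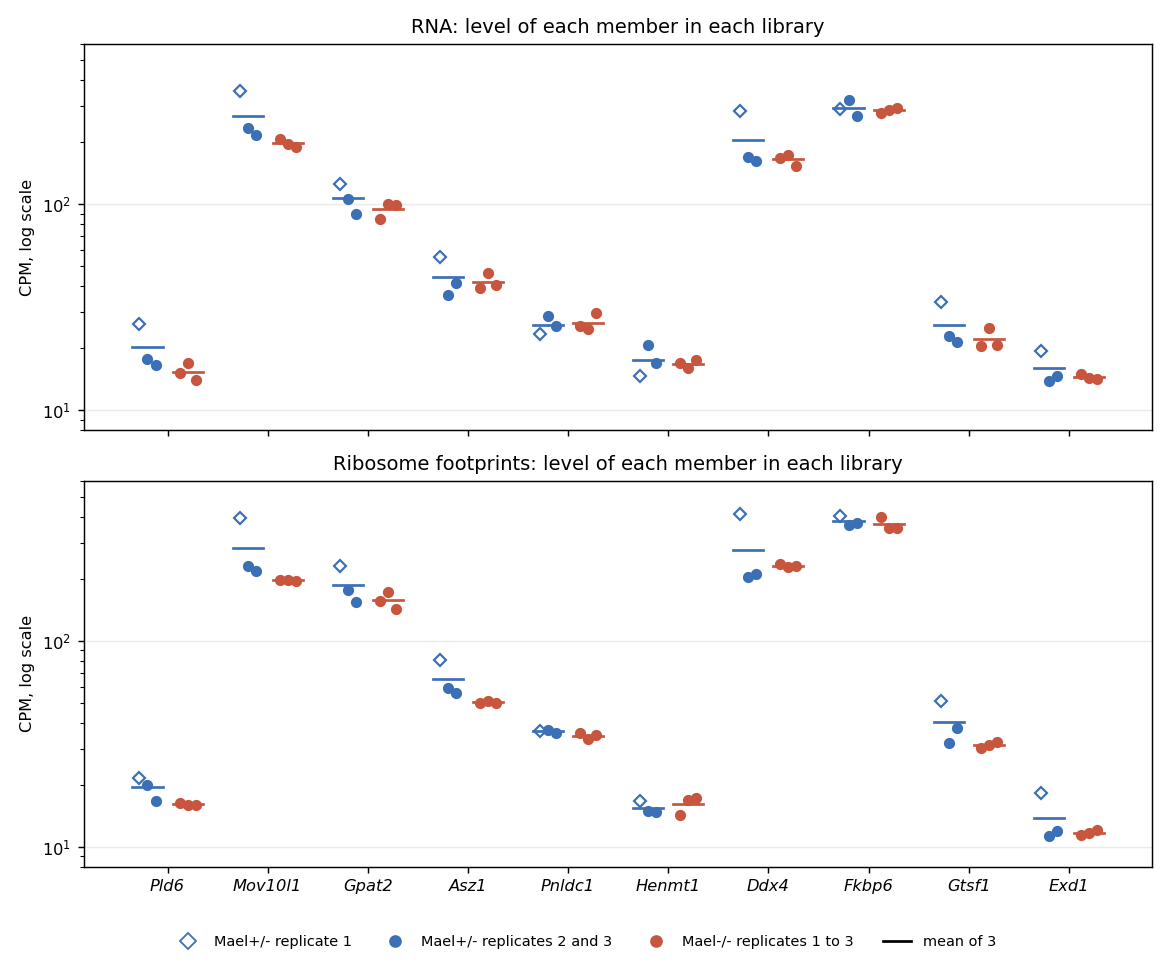
Level of each member in each library, in CPM on a log axis, for RNA (upper panel) and ribosome footprints (lower panel). Points are libraries, open diamonds mark *Mael*+/- replicate 1, and bars are means of 3. The diamond is the highest RNA point for 7 of the 10 members and the lowest for *Pnldc1* and *Henmt1*.

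*Mov10l1* (chr15:88982891-89055152), whose helicase binds piRNA precursors ahead of their cutting, had the largest difference of the 10. Its RNA level was 356, 233 and 216 CPM in *Mael*+/- replicates 1 to 3 and 206, 196 and 190 CPM in *Mael*-/-. Its footprints were 396, 232 and 219 CPM against 197, 198 and 194 CPM. In both assays every *Mael*-/- library lay below every *Mael*+/- library, and the second highest heterozygous value was far closer to the *Mael*-/- values than to replicate 1. The means were 269 ± 76.4 and 197 ± 8.30 CPM in RNA (SD, n = 3 each), which gave a log2 fold change of -0.45 (SE 0.17, 95% confidence interval -0.82 to -0.07). In footprints they were 282 ± 98.7 and 196 ± 1.81 CPM, with a log2 fold change of -0.52 (SE 0.19). Without *Mael*+/- replicate 1 the log2 fold changes were -0.19 (SE 0.09) in RNA and -0.20 (SE 0.09) in footprints. Pachytene markers were highest in the same replicate, and their part in the difference of *Mov10l1* was not tested.

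*Mov10l1* was the sole member with no overlap between genotypes in RNA. Among all genes tested, 5.03% were lower in *Mael*-/- with no overlap. Leaving out *Mael*+/- replicate 1, a step added after the data were seen, cannot undo such a lack of overlap. It brought in no further member in RNA, while the share of all genes rose to 9.81%. In footprints, *Mov10l1*, *Pld6* and *Asz1* had no overlap, with 4.85% of all genes lower in that way. No further member joined these 3 without replicate 1, where the share of all genes was 10.5%.

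*Pld6* (chr11:59783893-59787657) encodes the protein of the phospholipase D family that cuts precursors at mitochondria. In RNA it stood at 26.1, 17.7 and 16.7 CPM in *Mael*+/- and at 15.1, 16.9 and 14.002 CPM in *Mael*-/- testes. Footprint levels were 21.5, 20.0 and 16.8 CPM against 16.3, 15.96 and 16.02 CPM. The *Mael*-/- values of *Pld6* footprints were close to each other (SD 0.166 CPM) and just below the lowest heterozygous one. Its log2 fold change was -0.39 (SE 0.18) in RNA and -0.27 (SE 0.14) in footprints, and -0.17 (SE 0.13) and -0.19 (SE 0.14) without *Mael*+/- replicate 1.

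*Asz1* (chr6:18050964-18109061) encodes an ankyrin-repeat protein that holds germ granule components to mitochondria, and it was the member whose assays differed most. Its RNA was 55.7, 36.4 and 41.7 CPM in *Mael*+/- and 39.2, 46.5 and 40.5 CPM in *Mael*-/-, so that the genotypes overlapped. Its footprints were 80.6, 59.1 and 56.0 CPM against 50.03, 51.2 and 49.8 CPM and did not overlap. As a log2 fold change the difference was -0.08 (SE 0.15) in RNA and -0.37 (SE 0.14) in footprints. Without *Mael*+/- replicate 1 it was 0.11 (SE 0.11) in RNA and -0.19 (SE 0.10) in footprints.

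*Gpat2* (chr2:127425154-127436093), a mitochondrial acyltransferase by family that the pathway needs in germ cells, showed wide overlap. Its mean was 107 ± 17.5 CPM in *Mael*+/- RNA and 94.95 ± 8.83 CPM in *Mael*-/- RNA (SD, n = 3 each), with a log2 fold change of -0.17 (SE 0.13). In footprints the means were 187 ± 39.5 and 158 ± 14.5 CPM, with a log2 fold change of -0.25 (SE 0.14). Without *Mael*+/- replicate 1 these were -0.04 (SE 0.11) and -0.07 (SE 0.11). Of the 4 genes of precursor cutting, *Pld6*, *Mov10l1*, *Gpat2* and *Asz1*, all had their highest RNA and footprint value in *Mael*+/- replicate 1. So did *Ddx4*, *Gtsf1* and *Exd1*, which act elsewhere in the pathway. The share of all genes with their highest value there was not worked out.

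The genes that finish the 3′ end did not have their highest RNA value in that replicate. *Pnldc1* (chr17:12888723-12910580), the exonuclease that trims piRNA intermediates, had 25.9 ± 2.57 CPM in *Mael*+/- RNA and 26.6 ± 2.64 CPM in *Mael*-/- RNA, with a log2 fold change of 0.04 (SE 0.12, 95% confidence interval -0.23 to 0.31). Its footprints were 36.4 ± 0.789 and 34.7 ± 1.10 CPM. *Henmt1* (chr3:108939454-108979885), the enzyme that methylates the trimmed end, had 17.5 ± 3.06 CPM against 16.9 ± 0.807 CPM in RNA, and 15.5 ± 1.10 CPM against 16.2 ± 1.69 CPM in footprints. The log2 fold change of *Henmt1* was -0.05 (SE 0.14) in RNA and 0.06 (SE 0.14) in footprints. For both genes *Mael*+/- replicate 1 held the lowest of the 6 RNA values, 23.6 CPM for *Pnldc1* and 14.7 CPM for *Henmt1*, where most members had their highest. In footprints the same replicate had rank 2 of 6 for *Pnldc1* and rank 3 for *Henmt1*. Without it, the log2 fold changes of *Pnldc1* were -0.02 (SE 0.12) in RNA and -0.06 (SE 0.11) in footprints, and those of *Henmt1* -0.16 (SE 0.13) and 0.11 (SE 0.15).

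Among the genes of the nuage, *Ddx4* and *Fkbp6* were the most abundant and behaved differently across libraries. *Ddx4* (chr13:112598333-112652633), the DEAD-box helicase also known as Vasa and a marker of germ cells, had 283, 170 and 162 CPM in *Mael*+/- RNA and 168, 174 and 153 CPM in *Mael*-/- RNA. Its footprints were 414, 205 and 212 CPM against 235, 228 and 230 CPM. Replicate 1 thus exceeded the mean of the other *Mael*+/- replicates 1.70-fold in RNA and 1.98-fold in footprints, while these others lay among the *Mael*-/- values in RNA and below them in footprints. Over all libraries the log2 fold change was -0.31 (SE 0.19) in RNA and -0.26 (SE 0.22) in footprints. Without replicate 1 it was -0.01 (SE 0.09) in RNA, and in footprints it turned positive, at 0.14 (SE 0.09, adjusted p = 0.862 by edgeR).

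*Fkbp6* (chr5:135291704-135351809), a cochaperone of HSP90 needed for the amplification of piRNAs, varied least in RNA. It had 289, 322 and 268 CPM in *Mael*+/- RNA and 277, 286 and 293 CPM in *Mael*-/- RNA. In footprints the values were 403, 363 and 374 CPM against 401, 353 and 351 CPM. The genotypes overlapped in both assays and replicate 1 had rank 3 of 6 in RNA. The log2 fold change was -0.04 (SE 0.09, 95% confidence interval -0.24 to 0.16) in RNA and -0.04 (SE 0.10, 95% confidence interval -0.26 to 0.17) in footprints. Without *Mael*+/- replicate 1 both stayed near 0, at -0.05 (SE 0.10) and -0.00 (SE 0.10). The ratio of *Ddx4* to *Fkbp6* RNA counts within a library was 0.981 in *Mael*+/- replicate 1 and 0.523 to 0.608 in the other 5. In footprints it was 1.03 against 0.565 to 0.654. These ratios do not depend on how libraries were scaled.

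*Gtsf1* (chr15:103402458-103430445) encodes a small zinc finger protein that helps PIWI proteins cut their targets. It had 33.6, 23.0 and 21.3 CPM in *Mael*+/- RNA and 20.5, 25.1 and 20.8 CPM in *Mael*-/- RNA, and 51.3, 31.9 and 37.5 CPM against 30.1, 31.3 and 32.3 CPM in footprints. Its groups overlapped in both assays, in footprints by *Mael*+/- replicate 2 and *Mael*-/- replicate 3. The log2 fold change was -0.23 (SE 0.18) in RNA and -0.37 (SE 0.16) in footprints. *Exd1* (chr2:119516505-119547627), the RNA-binding partner of TDRD12, had the lowest levels per length of the members. Its means were 16.02 ± 3.04 and 14.4 ± 0.414 CPM in RNA and 13.8 ± 3.86 and 11.7 ± 0.340 CPM in footprints, with log2 fold changes of -0.15 (SE 0.15) and -0.24 (SE 0.19). Without *Mael*+/- replicate 1, *Gtsf1* was at 0.00 in RNA (SE 0.12) and -0.16 (SE 0.12) in footprints, and *Exd1* at 0.01 in both (SE 0.13 and 0.15).

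**Figure D2:**
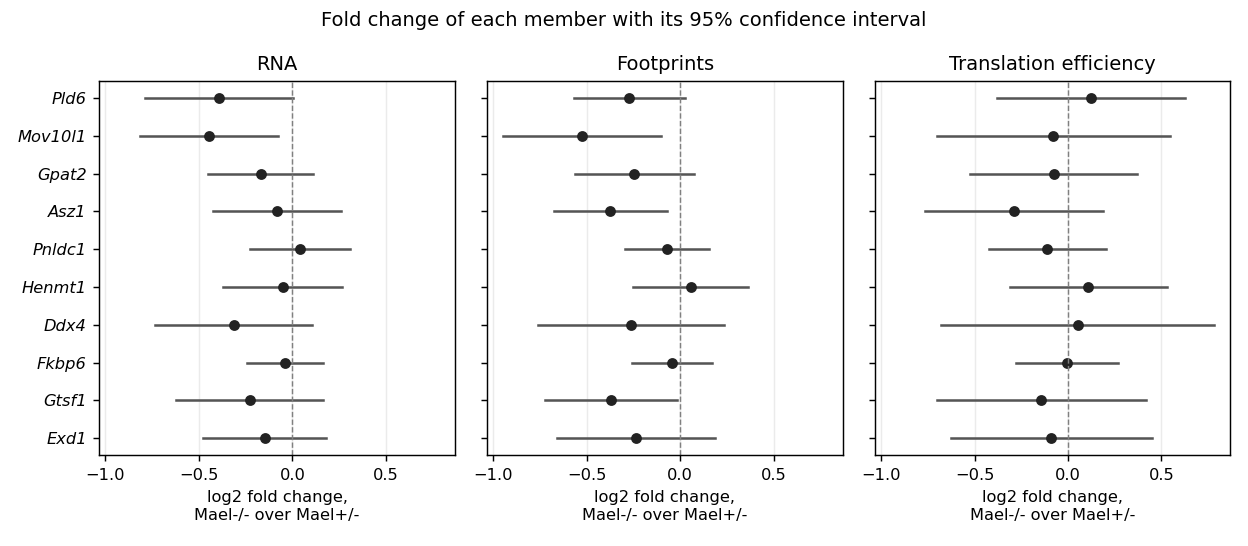
Log2 fold change of each member, *Mael*-/- over *Mael*+/-, in RNA, footprints and translation efficiency. Points are the estimates of edgeR and lines their 95% confidence intervals over 6 libraries (RNA, footprints) or 12 (translation efficiency). The points lie between -0.52 and 0.12, and no adjusted p was below 0.863.

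The spread among replicates was wider in *Mael*+/- than in *Mael*-/- testes for most members, a description with no test. The coefficient of variation of a member ran from 9.37% (*Fkbp6*) to 32.9% (*Ddx4*) over the *Mael*+/- RNA libraries and from 2.82% to 11.6% over the *Mael*-/- RNA libraries. In footprints it ran from 2.17% (*Pnldc1*) to 42.8% (*Ddx4*) against 0.921% (*Mov10l1*) to 10.5% (*Henmt1*). Relative to the mean of 6 libraries, the median member stood at 0.37 (log2) in *Mael*+/- replicate 1 in RNA, at 0.03 and -0.07 in replicates 2 and 3, and at -0.12, -0.05 and -0.09 in *Mael*-/-. In footprints it stood at 0.47, -0.02 and -0.08 against -0.13, -0.11 and -0.11. The replicates of *Mael*-/- thus lay close together and close to *Mael*+/- replicates 2 and 3.

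Single members departed from that median in replicate 1. Its RNA, as a fold of the mean of replicates 2 and 3, was 1.70-fold for *Ddx4*, 1.58-fold for *Mov10l1*, 1.52-fold for *Pld6* and for *Gtsf1*, 1.43-fold for *Asz1*, 1.37-fold for *Exd1* and 1.28-fold for *Gpat2*. It was 0.978 of that mean for *Fkbp6*, 0.870 for *Pnldc1* and 0.779 for *Henmt1*. The members were therefore not raised by 1 common factor in this extract. The medians of the marker lists in the same RNA library were 2.003 (log2) for pachytene spermatocytes, over the 5 of 10 genes with a mean of at least 1 CPM in both assays, 0.91 for early meiotic prophase, 0.03 for spermatogonia and -0.10 for Sertoli cells. The part of cell composition in the members' values was not tested.

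**Figure D3:**
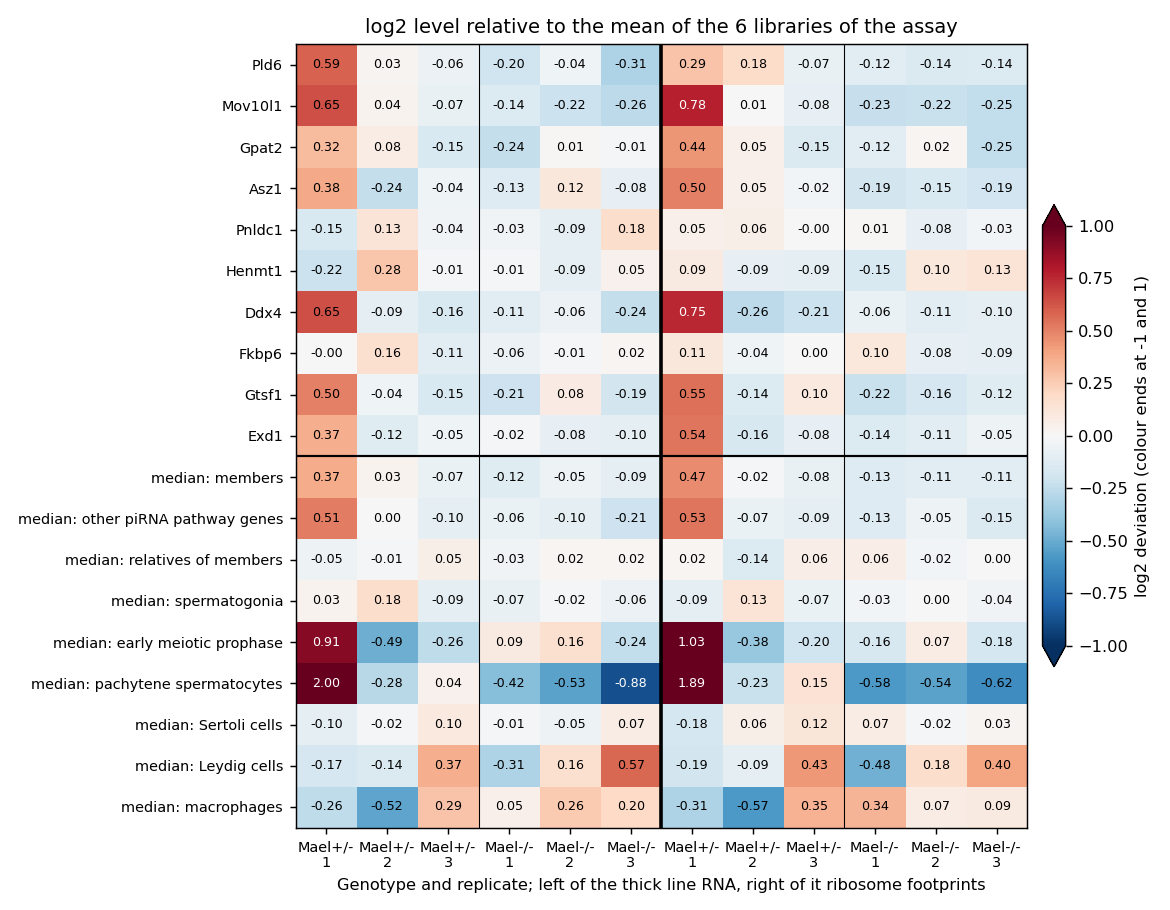
Log2 level of each member, and median over the genes of each list with a mean of at least 1 CPM in both assays, relative to the mean of the 6 libraries of the same assay. Columns are libraries, with RNA left and footprints right of the thick line, and numbers in the cells are the plotted values. *Mael*+/- replicate 1 is the column in which 7 members in RNA, the other piRNA pathway genes (0.51) and the pachytene markers (2.003) were all high.

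Translation efficiency, the change of footprints beyond that of RNA, did not pass the test for any member. It was fitted as the interaction of genotype and assay over the 12 libraries, and with edgeR's quasi-likelihood test 0 of the 10 members and 0 of 13448 genes (0%) passed an adjusted p of 0.05. Unadjusted, p was below 0.05 for 0 members and for 0.394% of all genes, and DESeq2 gave 0 members at either threshold. The median log2 change was -0.08 over the members, 7 negative and 3 positive, and -0.00 over all genes. Without the *Mael*+/- extract 1 the members' median was -0.02. The 95% confidence interval was widest for *Ddx4*, -0.68 to 0.78, and narrowest for *Fkbp6*, -0.28 to 0.27, and the lowest bound was that of *Asz1*, -0.77. These intervals are for single genes, without adjustment over the 13448 tested, and are not limits of detection. The smallest change that could be called was not worked out, and this fit leaves the pairing of the libraries out.

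RNA and footprints of an extract came from the same lysate, so the interaction was also fitted with each extract as a block. The interval of *Ddx4* was then -0.13 to 0.29 (SE 0.10 against 0.34 without the block). Again 0 members and 0 of all genes (0%) passed the adjusted threshold. *Asz1* alone had an unadjusted p below 0.05 in this blocked fit (adjusted p = 0.9999, edgeR), as did 2.10% of all genes, with a log2 change of -0.29 (SE 0.11, 95% confidence interval -0.52 to -0.06). Footprints over RNA of *Asz1*, per base and relative to the median gene of the extract, were -0.06, 0.11 and -0.16 (log2) in the *Mael*+/- extracts and -0.24, -0.45 and -0.28 in the *Mael*-/- extracts. It was the sole member for which this ratio was lower in every *Mael*-/- extract, a state that 3.56% of all genes shared. Without the *Mael*+/- extract 1 the unblocked estimate for *Asz1* was -0.30 (SE 0.14), close to the -0.29 (SE 0.22) over all 12 libraries.

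The members differed among themselves in footprints per RNA far more than between genotypes. Averaged over the 6 extracts, *Pld6* had 1.63-fold the ratio of the median gene per base, which placed it at percentile 81.4 of 13185 genes. *Fkbp6* (percentile 65.6) and *Gtsf1* (62.4) followed, and *Gpat2* (51.6) and *Ddx4* (47.5) were near the middle. *Henmt1* (42.0), *Asz1* (39.8), *Exd1* (34.8) and *Pnldc1* (29.6) were lower. *Mov10l1* had 0.631 of the ratio of the median gene, at percentile 14.7. The *Mael*+/- extracts of *Mov10l1* had -0.54, -0.70 and -0.67 (log2) and its *Mael*-/- extracts -0.76, -0.68 and -0.64, against 0.40, 0.86 and 0.70 and 0.79, 0.60 and 0.89 for *Pld6*. No extract of *Mov10l1* came near any of *Pld6*.

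These places depend on the lengths used, the RefSeq mRNA for RNA and the coding sequence for footprints. *Pld6* has 666 coding bases in 1959 bases of annotated mRNA, and *Mov10l1* 3564 in 4052. With no length taken into account *Pld6* stood at percentile 57.1 and *Mov10l1* at 57.3, and *Gpat2* (90.5) was then the highest member and *Exd1* (39.8) the lowest. Annotated lengths need not be those of the transcripts used in these testes.

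**Figure D4:**
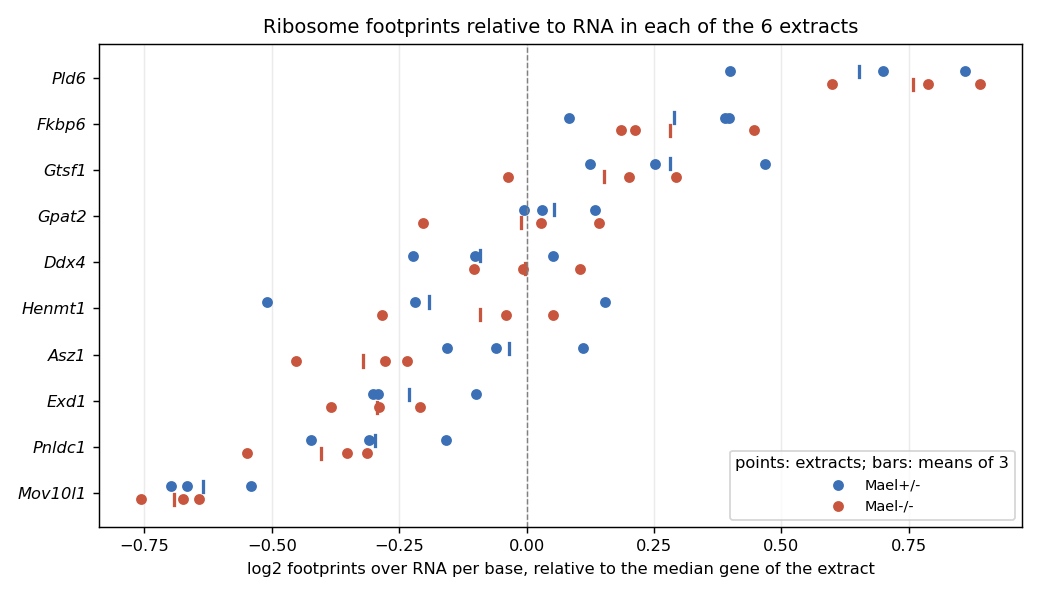
Footprints over RNA per base for each member, log2 relative to the median gene of the extract (dashed line at 0). Points are the 3 extracts of each genotype and bars their means. *Pld6* lies highest and *Mov10l1* lowest in both genotypes, and *Asz1* is the member whose genotypes do not overlap.

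Levels of different members were compared per kilobase (kb) of mRNA for RNA and of coding sequence for footprints. *Fkbp6* led in *Mael*+/- RNA at 164 ± 15.3 CPM per kb (SD, n = 3). *Ddx4* (72.1 ± 23.7) and *Mov10l1* (66.3 ± 18.9) came next and overlapped. In the next place *Gpat2* (40.7 ± 6.65) overlapped *Gtsf1* (35.9 ± 9.23), and *Gtsf1* overlapped *Asz1* (25.6 ± 5.74). *Pnldc1* (15.4 ± 1.52), *Pld6* (10.3 ± 2.65) and *Henmt1* (8.19 ± 1.43) followed, the last of these overlapping *Pld6*, and *Exd1* was lowest at 5.10 ± 0.967. The nuage gene *Fkbp6* and the precursor nuclease gene *Pld6* were thus far apart. In *Mael*-/- RNA the order was the same but for *Henmt1* (7.91 ± 0.378) and *Pld6* (7.83 ± 0.745), which overlapped.

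The order in footprints was alike at both ends. *Fkbp6* had 365 ± 19.9 CPM per kb of coding sequence in *Mael*+/- and 354 ± 27.2 in *Mael*-/-, and *Exd1* 8.05 ± 2.26 and 6.85 ± 0.199. *Mov10l1*, of rank 3 in RNA, had rank 4 in *Mael*+/- footprints (79.2 ± 27.7, overlapping both neighbours) and rank 5 in *Mael*-/- footprints (55.1 ± 0.508, below *Gtsf1* with no overlap). *Pld6*, of rank 8 and 9 in RNA, had rank 7 in both genotypes in footprints (29.2 ± 3.65 and 24.2 ± 0.249).

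The other genes of the piRNA pathway, PIWI and Tudor domain proteins and regulators of piRNA genes, were listed beside the members. Of 16 listed, 15 were found (not *Spocd1*) and tested. In RNA 0 of 15 passed the adjusted threshold and 5 had an unadjusted p below 0.05, against 5.40% of all genes. In the same assay 14 had a negative log2 fold change, with a median of -0.24. In footprints 0 of 15 passed, 4 had an unadjusted p below 0.05, against 4.33% of all genes, and 14 were negative, with a median of -0.25. The fits of this list and of the relatives without *Mael*+/- replicate 1 were added after the data were seen. The median was then -0.08 in RNA, with 10 of 15 negative, and -0.02 in footprints, with 8 of 15 negative. In each assay 0 passed the adjusted threshold by edgeR. The lowest adjusted p was 0.0808 in RNA and 0.195 in footprints, both for *Piwil1*. Over all libraries the 3 with the largest change were the same in both assays, *Tdrd6*, *Piwil1* and *Tdrd9*, each with a negative log2 fold change.

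*Piwil1*, the PIWI protein of pachytene spermatocytes, had 78.8, 10.9 and 13.9 CPM in *Mael*+/- RNA and 8.08, 8.08 and 6.82 CPM in *Mael*-/- RNA. Replicate 1 stood far above all others, and the remaining *Mael*+/- values also exceeded the *Mael*-/- ones. Its log2 fold change was -2.17 (SE 0.65, adjusted p = 0.729 by edgeR) in RNA and -2.22 (SE 0.61) in footprints, and without replicate 1 it was -0.71 (SE 0.16, adjusted p = 0.0808 by edgeR) and -0.82 (SE 0.18). *Tdrd6*, a Tudor protein of late spermatocytes and spermatids, had 12.1, 1.94 and 2.04 CPM against 1.02, 0.644 and 0.766 CPM in RNA, and 14.1, 1.42 and 1.95 CPM against 0.984, 1.10 and 1.19 CPM in footprints. Its log2 fold change was -2.74 (SE 0.72, adjusted p = 0.6001 by edgeR) in RNA and -2.43 (SE 0.78) in footprints, and without replicate 1 it was -1.33 (SE 0.31, adjusted p = 0.101 by edgeR) and -0.67 (SE 0.37). *Tdrd9*, a helicase with a Tudor domain, had 187, 141 and 126 CPM against 111, 99.7 and 109 CPM, with -0.51 (SE 0.14, adjusted p = 0.609 by edgeR) in RNA and -0.53 (SE 0.16) in footprints. Without replicate 1 the values of *Tdrd9* were -0.32 (SE 0.09) and -0.28 (SE 0.09). The members' own RNA changes were at most 0.45 in size over all libraries, but these 3 were picked for the size of their change. Over the whole lists the RNA medians were -0.16 for the members and -0.24 for the other pathway genes.

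Relatives of the members by family had median log2 fold changes close to 0. Of 12 listed, 11 were found (not *Gtsf2*), and 10 were tested, since *Gtsf1l* had 1 count in 1 library and 0 in the rest. In both assays 0 of the 10 passed the adjusted threshold. In RNA 1 had an unadjusted p below 0.05 (5.40% of all genes), 5 were negative, and the median log2 fold change was 0.02. In footprints none had an unadjusted p below 0.05, 3 were negative and the median was 0.04. The medians without *Mael*+/- replicate 1 were 0.02 in RNA and 0.08 in footprints, and no relative had an unadjusted p below 0.05 in either assay. *Mov10*, the broadly expressed relative of *Mov10l1*, had a log2 fold change of -0.04 (SE 0.11) in RNA and -0.02 (SE 0.11) in footprints. In the same order the values were 0.13 and 0.12 for *Gpam*, beside *Gpat2*, -0.12 and 0.01 for *Parn*, beside *Pnldc1*, and 0.12 and 0.08 for *Pld3*, beside *Pld6*.

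Of the relatives of *Ddx4*, the log2 fold changes of *Ddx3x* (0.07 in RNA, 0.17 in footprints) and *Ddx3y* (0.06 and 0.05) were positive and *D1Pas1* (-0.36, SE 0.35, and -0.34, SE 0.28), a copy expressed in the testis, was negative. With *Mael*+/- replicate 1 left out, *D1Pas1* turned positive, at 0.23 (SE 0.17) and 0.18 (SE 0.12). These 3 are close relatives and the treatment of reads with several places is not given, so reads may have been split among them. Their sequences were not compared here. *Exd2*, beside *Exd1*, had -0.33 (SE 0.14) in RNA, the sole relative with an unadjusted p below 0.05 (adjusted p = 0.901, edgeR), and -0.27 in footprints. Without that replicate it had -0.16 (SE 0.10) and -0.04 (SE 0.11). *Fkbp4* and *Fkbp5*, cochaperones beside *Fkbp6*, stood at 0.05 and -0.02 in RNA, and at 0.11 and 0.03 in footprints. *Fkbp4* in RNA (-0.02) and *Pld3* in footprints (-0.0032) changed sign without *Mael*+/- replicate 1, both within their SE of 0. At 259 ± 24.3 CPM per kb in *Mael*+/- RNA, *Fkbp4* was above every member.

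Genes with the profile most like that of the members were sought among those with a mean of at least 20 CPM in both assays, by the root mean square difference of log2 levels over the 12 libraries, each relative to the mean of its assay. To the median profile of the members, the nearest of 7953 genes were *Csnk2a2* (0.0429), *Rad54b* (0.0494), *Rnf6* (0.0509), *Ufsp2* (0.0551) and *Zc3h14* (0.0561), where the median gene was at 0.217. *Mov10l1* varied most over the RNA libraries. Its nearest of 7959 genes were *Sprtn* (0.0596), *Senp2* (0.0742), *Ift81* (0.0761), *Tdrd9* (0.0774) and *Crat* (0.0841), with the median gene at 0.347. Of the other members with at least 20 CPM, *Ddx4* ranked 47, *Gtsf1* 71, *Asz1* 181 and *Gpat2* 242 by likeness to *Mov10l1*, while *Fkbp6* ranked 2589 and *Pnldc1* 4411. *Tdrd9* was the sole gene of the piRNA lists among these 10 nearest. Both profiles were highest in *Mael*+/- replicate 1, so likeness to them depends heavily on that extract. There the median member stood at 0.37 (log2) in RNA and 0.47 in footprints, and *Mov10l1* at 0.65 and 0.78. Likeness without that extract was not worked out.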

How the data were processed

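RNA and ribosome footprints were measured in testes of 3 *Mael*+/- and 3 *Mael*-/- extracts at postnatal day 16. Per the study's methods and the submitters' processing notes, the authors removed ribosomal DNA reads with Bowtie 1.2.2, aligned to mm10 with STAR 2.6.0c and counted with featureCounts (Subread 1.6.4), over whole mRNAs for RNA and coding sequence for footprints. The deposited values are raw counts per gene. The annotation, the strand setting, the treatment of reads with several places and of duplicates are not given in the sources used here, so errors hold for the deposited counts as they stand. The authors' deposited DESeq2 tables (fold changes, p-values) were not used.

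Genes were tested in R 4.3.3 with edgeR 4.0.16 (quasi-likelihood F-test, filterByExpr, TMM scaling within each assay, Benjamini-Hochberg adjustment over all genes, called at 0.05), without covariates. Translation efficiency was the genotype by assay interaction. DESeq2 1.42.0, other scalings, no filter, blocks and leaving out each replicate were alternatives. CPM were counts over the gene total times the TMM factor. The tests were tried on simulated counts first. The text names all members, *Mael*, the 3 other piRNA pathway genes with the largest change per assay, detected relatives and the 5 nearest profiles. The members and lists were chosen with earlier results of these data known.

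RNA and footprint libraries of an extract were taken as pairs, as the protocol gives aliquots of 1 extract: their deviations from the group means correlated at 0.26 to 0.81 over 9748 genes. No replicates held identical counts.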

Additional observations from a re-analysis of the deposited data

How the results depend on the processing

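No setting gave a called member in any of the 3 comparisons: the number was 0 with DESeq2, median-of-ratios factors, library totals, no filter on low counts, each block and each replicate left out. The members' median log2 fold change kept its sign under all of these. When 1 replicate was left out, the RNA median lay between -0.24 and -0.03, the footprint median between -0.37 and -0.07, and the median of translation efficiency between -0.11 and -0.011, against -0.08 with all libraries. The value nearest 0 in RNA and in footprints came without *Mael*+/- replicate 1, and in translation efficiency without *Mael*-/- extract 3 (-0.011), with -0.016 without *Mael*+/- extract 1. Over the fits that left out 1 replicate, the lowest adjusted p of a member by edgeR was 0.330 for RNA, 0.309 for footprints and 0.9998 for translation efficiency.

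Under the settings that kept all replicates, 159 values for single members kept their sign, and 1, *Fkbp6* in translation efficiency, turned from -0.01 to 0.00056 without a filter. With a replicate left out, 163 kept their sign and 17 changed it, none of them called. In RNA the ranges of these members were -0.35 to 0.00078 for *Gtsf1*, -0.21 to 0.11 for *Asz1*, -0.045 to 0.12 for *Pnldc1*, -0.24 to 0.014 for *Exd1*, -0.16 to 0.091 for *Henmt1* and -0.099 to 0.036 for *Fkbp6*. In footprints they were -0.44 to 0.14 for *Ddx4* and -0.36 to 0.013 for *Exd1*. In translation efficiency they were -0.022 to 0.23 for *Pld6*, -0.11 to 0.048 for *Fkbp6*, -0.0057 to 0.16 for *Ddx4*, -0.062 to 0.27 for *Henmt1* and -0.14 to 0.021 for *Gpat2*. The cause was not tested.

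*Mael*+/- and *Mael*-/- libraries share replicate numbers in the labels. Their deviations correlated at -0.05 to 0.31 for RNA and 0.08 to 0.32 for footprints, so not every pair passed 0.1. Whether they share more than a number cannot be told from these correlations, and the sources used here do not say. With that number as a replicate block the members' median was -0.14 for RNA, -0.23 for footprints and -0.08 for translation efficiency. In all 50 genes were then called in RNA against 17, and 23 in footprints against 8. With each extract as a block the median of translation efficiency was -0.06, and the block changed no other call. Depth was lowest for *Exd1*, *Henmt1* and *Pld6*, the members with the fewest counts. The largest SE of a log2 fold change was nevertheless that of *Ddx4*, 0.19 in RNA and 0.22 in footprints. In the same order the SE was 0.15 and 0.19 for *Exd1*, 0.14 and 0.14 for *Henmt1*, and 0.18 and 0.14 for *Pld6*. The part of depth in these errors was not tested.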
